A study of Mus musculus with 24 samples.

Results

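Mixed reflux brings acid from the stomach and bile from the duodenum together onto the squamous lining of the oesophagus. The members described here are the 3 arrays of wild-type mice with mixed reflux, of 24 arrays in the series, taken as one group by their labels and set against the 3 arrays of wild-type mice without reflux. The mice were male C57BL/6J mice, 12 weeks old, with reflux for 4 weeks according to the series title. The labels do not say how the reflux was made. Further comparisons used wild-type mice with duodenal reflux or gastric reflux, and mice without the transcription factor Nrf2 (Nrf2-/-, called Nrf2-null below) with mixed reflux or without reflux, each with 3 arrays. RNA came from the whole esophagus by one label and from esophageal epithelium by another (for Nrf2-null mixed reflux both labels say epithelium), and each sample was called a biological replicate. On each array the sample was labelled with Cy5 and Agilent's Universal Mouse Reference RNA, pooled from 11 cell lines, with Cy3, with no dye swap. Values are log2(Cy5/Cy3), so a value of 0 means a level equal to that in the reference RNA, and a difference of 1 is a change of 2-fold.

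The squamous oesophagus is renewed by basal keratinocytes that differentiate as they move to the surface. Injured squamous epithelium switches on the stress keratins and the alarmins of the S100 family, and releases cytokines and chemokines that draw in neutrophils, macrophages and T cells. Nrf2 drives genes of glutathione and quinone metabolism that protect cells from oxidants, and Nrf2 is itself well expressed in squamous epithelium.

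The squamous markers Krt4, Krt13, Krt5 and Trp63 were far above the reference RNA in mixed reflux, with Krt4 at 6.74, 6.38 and 6.69 in replicates 1, 2 and 3. Nfe2l2, the gene of Nrf2, was at 2.06, 1.96 and 1.81 in wild-type mixed reflux and averaged -3.67 in Nrf2-null mixed reflux, as the genotype labels state. Mixed reflux replicate 2 stood apart from replicates 1 and 3 and was richer in muscle and fat transcripts, as described below. All mixed reflux arrays were scanned on day 3, whereas replicates 1 and 2 without reflux were scanned on day 1 and replicate 3 on day 2, so no scan day and no slide held both groups. Replicates 1 and 2 without reflux also came from slide 1, which was read with an older software version. There 13% and 11.8% of spots were marked as outliers, and of the 10% of probes that were brightest, 75.2% and 76.1% had no value. Genes that could not be read there are given with the arrays that had a value.

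Of 20539 genes tested between wild-type mixed reflux and wild type without reflux, 9 rose and 2 fell at an adjusted p under 0.05 (limma, Benjamini-Hochberg over all genes tested). These counts are 0.0438% and 0.00974% of the genes tested. The genes that rose were S100a8, Cd163l1, Krt16, Fmo9, S100g, Prap1, Clec2d, Ifi27l2b and AF062525, and the genes that fell were Hoxa9 and NAP030172-1. In all 11 the values of the mixed reflux arrays lay entirely above or entirely below those of the arrays without reflux. Among all 15430 genes with a value on all 6 arrays, 15.8% were higher without overlap and 6.53% were lower without overlap.

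Upstream sequence is shown for 3 of the called genes: S100a8, which had the largest difference, and S100g and Prap1, whose responses differed between the genotypes. Each window is the 250 bases before the transcription start in RefSeq, build GRCm38.p6, and 7 of the 11 called genes had an entry. Capitals mark matches to the TATA box (TATAAA), the C/EBP motif (TTGCNNAA), the antioxidant response element (TGACNNNGC) or AP-1 (TGANTCA), searched on both strands. The windows are S100a8 at chr3:90668821-90669070, plus strand, S100g at chrX:162964600-162964849, minus strand, and Prap1 at chr7:140093146-140093395, plus strand.
S100a8: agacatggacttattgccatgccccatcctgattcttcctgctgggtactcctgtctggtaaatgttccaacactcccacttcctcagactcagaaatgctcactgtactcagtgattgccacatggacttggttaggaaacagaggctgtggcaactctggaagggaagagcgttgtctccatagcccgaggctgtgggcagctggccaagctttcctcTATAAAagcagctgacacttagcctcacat
S100g: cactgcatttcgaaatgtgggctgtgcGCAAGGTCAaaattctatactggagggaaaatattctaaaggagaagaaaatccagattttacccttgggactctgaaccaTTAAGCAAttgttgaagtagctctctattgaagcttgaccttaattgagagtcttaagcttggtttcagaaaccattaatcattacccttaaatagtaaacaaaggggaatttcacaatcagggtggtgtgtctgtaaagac
Prap1: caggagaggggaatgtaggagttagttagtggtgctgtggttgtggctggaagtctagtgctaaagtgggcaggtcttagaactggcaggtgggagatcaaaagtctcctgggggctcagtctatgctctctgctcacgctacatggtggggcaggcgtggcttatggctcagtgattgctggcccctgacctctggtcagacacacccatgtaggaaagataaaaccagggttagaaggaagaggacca
S100a8 has a TATA box 30 bases before the start, S100g has a C/EBP match 142 bases and an antioxidant response element match 223 bases before the start, both on the opposite strand, and Prap1 has none of the 4 motifs in this window. Clec2d, whose response also differed between the genotypes, had an entry that is not shown, with none of the 4 motifs. Among the called genes with an entry, only S100g had an antioxidant response element match. Over 32841 promoter windows of this length, 12.4% hold the TATA box, 9.57% the C/EBP motif, 10.2% the antioxidant response element and 6.75% AP-1.

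Of the called genes, 4 are known from stressed keratinocytes or leukocytes. S100a8, an alarmin of neutrophils and stressed keratinocytes, was at 2.94, 7.18 and 2.84 in mixed reflux replicates 1 to 3, against -0.05, -0.13 and -0.55 without reflux. Its difference was 4.56 ± 0.79 (log2, SE) with an adjusted p of 0.0451. Here and below, the SE rests on a spread pooled over all groups of the fit. The standard deviation of S100a8 was 2.48 within mixed reflux and 0.27 within the group without reflux. Every mixed reflux array was high, and replicate 2 was the highest by a wide margin. Krt16, a keratin that squamous epithelium makes on injury, was at 4.59, 6.02 and 4.47 in mixed reflux, against 2.24, 2.04 and 2.03 without reflux. It rose by 2.92 ± 0.47 (adjusted p 0.0308). Here too the 3 mixed reflux arrays were all high and replicate 2 was highest. Cd163l1, a scavenger receptor found in mouse on gamma-delta T cells, was at 3.76, 4.23 and 3.30 in mixed reflux, against 0.65, 0.46 and 1.03 without reflux. Its difference was 3.05 ± 0.33 (adjusted p 0.000585), and its 3 mixed reflux values were close to each other. Clec2d, a lectin-like ligand of NK cell receptors, was at 2.29, 2.49 and 2.87 in mixed reflux, against 1.35, 0.69 and 1.1 without reflux, a rise of 1.5 ± 0.23 (adjusted p 0.0218). In bulk tissue, more cells of a type and more RNA per cell cannot be told apart.

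Others are known from the gut or from detoxification. Prap1, a secreted acidic protein of gut and uterine epithelium, was at 2.36, 1.81 and 1.74 in mixed reflux, against -0.01, 0.16 and -0.04 without reflux. It rose by 1.93 ± 0.20 (adjusted p 0.000585). S100g, the vitamin D-dependent calcium-binding protein of intestine, was at 0.85, 1.47 and 0.92 in mixed reflux, against -0.96, -0.54 and -1.30 without reflux, a difference of 2.01 ± 0.25 (adjusted p 0.00279). It was not well above background without reflux and was at least 2.64-fold higher in mixed reflux. Such a bound sets the mean Cy5 level of the brighter group against that of the dimmer group. On each array of the dimmer group, a level under the dimmest that counted as well above background was raised to it. The bound is open to dye bias because no dyes were swapped. Fmo9, of the flavin-containing monooxygenases, was at 2.17, 2.27 and 2.27 in mixed reflux, against 0.40, -0.05 and 0.31 without reflux, at least 3.36-fold higher (adjusted p 0.0398). Its 3 mixed reflux values were nearly equal, and replicate 2 did not stand apart.

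The remaining called genes moved less. Ifi27l2b, of an interferon-inducible family, was at 0.70, 0.82 and 0.61 in mixed reflux, against -0.20, -0.31 and -0.28 without reflux (difference 0.97 ± 0.13, adjusted p 0.00359, at least 1.26-fold). Hoxa9, a homeodomain transcription factor of body patterning, was at -0.34, -0.60 and -0.56 in mixed reflux, against 0.41, 0.44 and 0.57 without reflux. It fell by 0.97 ± 0.13 (adjusted p 0.00496). The probes AF062525 and NAP030172-1 carry no gene symbol in the tables used: AF062525 rose by 1.20 ± 0.20 and NAP030172-1 fell by 1.27 ± 0.21 (adjusted p 0.0348 for both). On build mm9, as the scanner files give positions, the Krt16 probe lies at chr11:100107405-100107464, the S100a8 probe at chr3:90473778-90473837, the Prap1 probe at chr7:147282945-147283004 and the Hoxa9 probe at chr6:52174269-52174328.

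**Figure D1:**
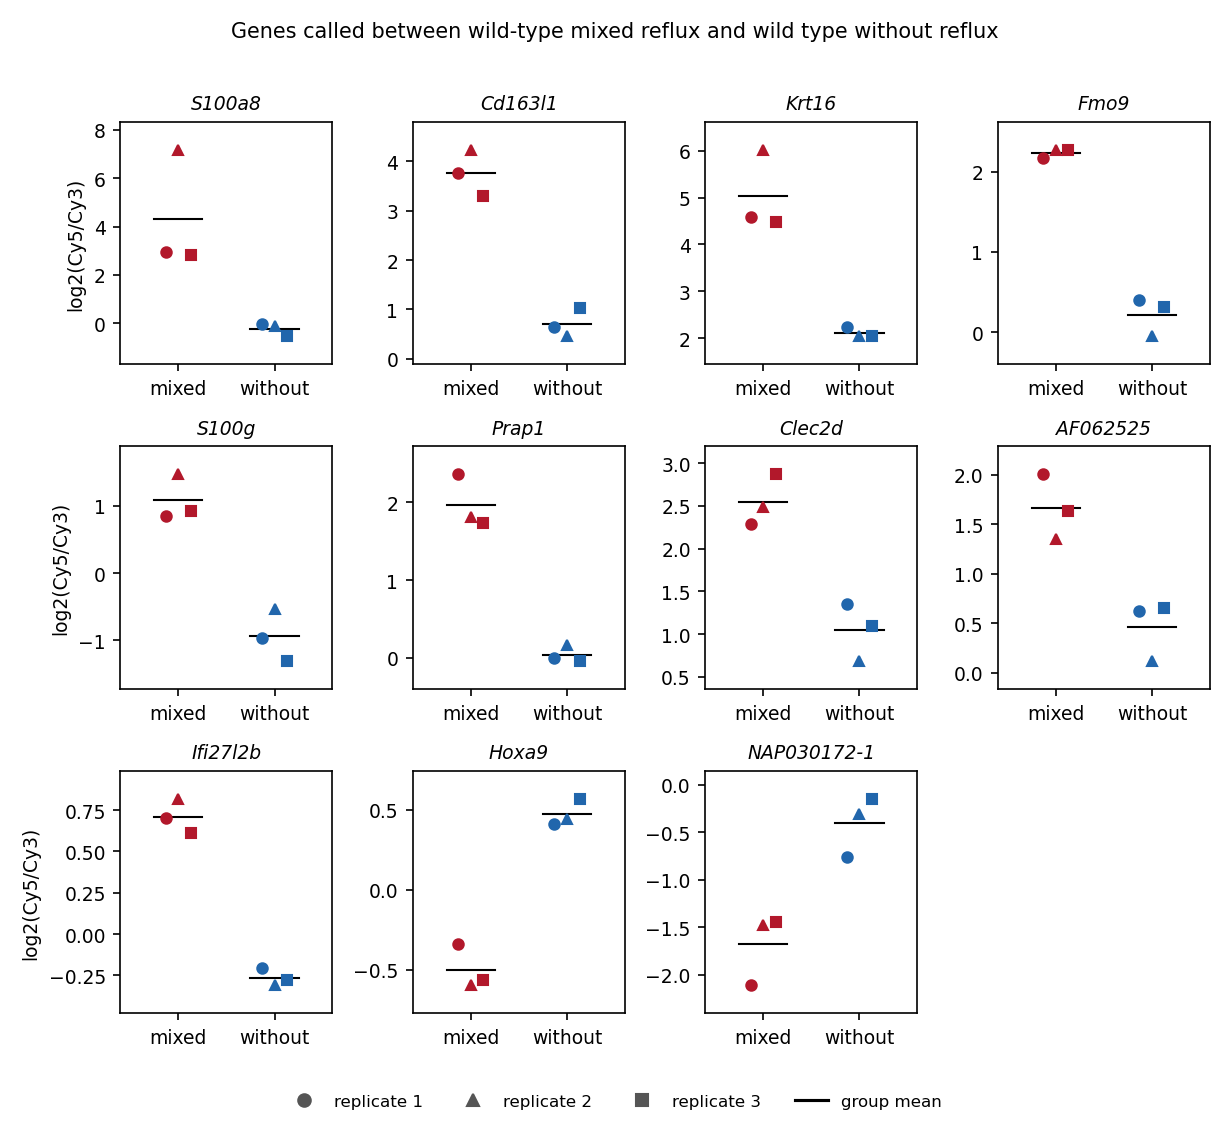
log2(Cy5/Cy3) of the 11 called genes on each array of wild-type mixed reflux (red, left) and wild type without reflux (blue, right), with the group mean as a line and the replicate number as the symbol. The groups do not overlap in any panel, and replicate 2 (triangle) lies far above the other mixed reflux arrays for S100a8 and Krt16.

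Cd163l1, S100g, Prap1, Ifi27l2b and Hoxa9 stayed called whichever of the 6 arrays was left out; S100a8 was called without any 1 mixed reflux array but not without any 1 array without reflux (adjusted p 0.129 to 0.203). With scan day as a block none of the 11 was called and 7 other genes were lower. All 11 kept their sign, with differences of 3.89 for S100a8, 2.18 for Cd163l1, 1.56 for Krt16, 2.03 for S100g, 1.92 for Fmo9, 1.87 for Prap1 and 1.94 for Clec2d. In that fit the step between days 2 and 3 comes from the Nrf2-null group without reflux, which had 1 array on day 3, and the step between days 1 and 2 from the wild-type arrays without reflux. With the local backgrounds as read, 2168 genes were higher and 958 lower, and in a fit of only the 12 wild-type arrays 153 were higher and 126 lower; all 11 were called in both. With the local backgrounds as read, the background model for Cy5 had a fitted mean of -813.1 and -1075 on replicates 1 and 3 without reflux, against -21.2 to -6.0 on the other arrays of the 2 groups.

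**Figure D2:**
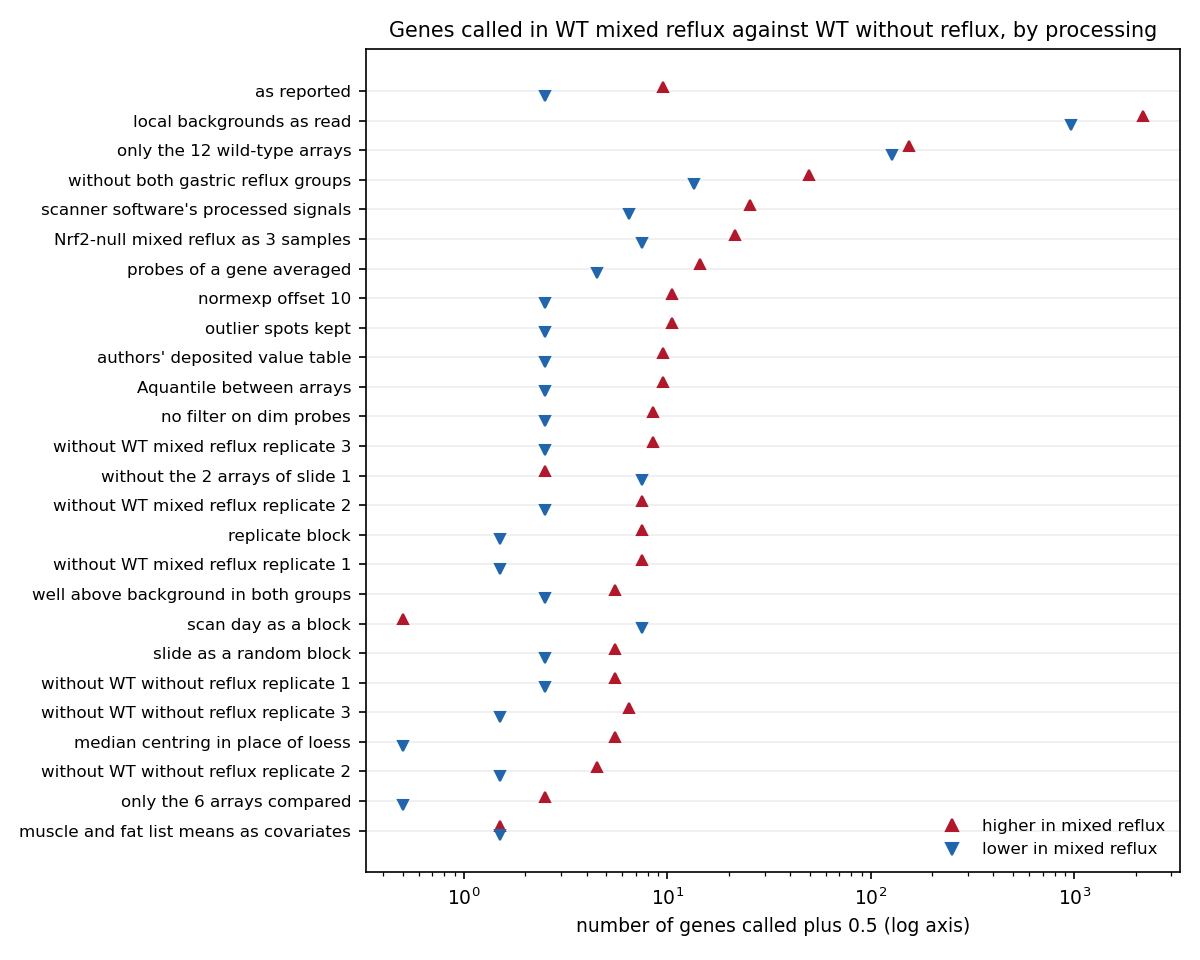
Number of genes called higher (red) and lower (blue) in wild-type mixed reflux under each processing, plus 0.5 so that 0 can be drawn, on a log axis. The reported counts of 9 and 2 are the top line; the counts run from 0 higher with scan day as a block to 2168 higher with local backgrounds as read.

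Several inflammatory genes, chosen after their values were seen, were high in mixed reflux replicate 2 and close to the measured level without reflux in replicates 1 and 3. Il19 and Cxcl5 were well above background on 1 of 3 mixed reflux arrays and 0 of 3 without reflux, and Ltf on 3 of 3 and 1 of 3, so their low values are near the floor. Lists differed in whether replicates 1 and 3 lay above the level without reflux. The 18 neutrophil genes, S100a8 among them, averaged 0.67, 1.77 and 0.63 in mixed reflux, against 0.28, 0.35 and 0.04 without reflux. The genes of the IL-20 and IL-17 family averaged 0.87, 1.20 and 0.73, against 0.72, 0.74 and 0.74. Matrix metalloproteinases and their inhibitors averaged -1.79, -0.73 and -1.65, against -1.43, -1.34 and -1.68. Il19, a cytokine that acts on keratinocytes, was at 0.01, 4.13 and -0.17 in mixed reflux, against 0.06, -0.29 and -0.28 without reflux. Ltf, the iron-binding protein lactoferrin of neutrophils and glands, was at 0.50, 4.36 and 0.11, against 0.36, 0.18 and 0.25. Saa3, an acute-phase protein made in inflamed tissue, was at -3.85, 0.05 and -3.56, against -3.86, -3.80 and -3.86. For these 3 genes, replicates 1 and 3 of mixed reflux lay within 0.5 log2 units of the nearest array without reflux, and the difference did not pass the test (adjusted p 0.474 for Il19, 0.487 for Ltf and 0.566 for Saa3). Epgn, an EGF family ligand, was at 1.37, 4.32 and 1.09, against 0.64, 0.79 and 1.03, with the same shape and an adjusted p of 0.343. The chemokines Cxcl1, at -4.96, -3.33 and -5.06 against -5.11, -4.90 and -5.47, and Cxcl5, at -4.56, -0.54 and -4.74 against -4.41, -3.85 and -5.44, followed it too; both draw in neutrophils.

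Other inflammatory genes were higher on all 3 mixed reflux arrays without passing the test. Il1b, the master cytokine of early inflammation, was at 1.78, 3.32 and 1.58 in mixed reflux, against -0.49, -0.62 and -1.36 without reflux (difference 3.05 ± 0.80, adjusted p 0.203). Cxcl3, a neutrophil chemokine, was at 1.40, 2.50 and 0.82, against -0.57, -0.22 and -0.87, at least 2.91-fold higher with an adjusted p of 0.0565. Nfkbiz, a nuclear regulator of NF-kB, was at 1.1, 0.90 and 0.91, against -0.16, -0.70 and 0.32 (adjusted p 0.196). Unlike Il19 and Ltf, Nfkbiz was no higher in replicate 2 than in the other mixed reflux arrays. Krt1, a keratin of differentiating cornified epithelium, was at 0.35, 2.75 and 0.56 in mixed reflux, against 4.03, 4.89 and 4.90 without reflux (difference -3.39 ± 0.74, adjusted p 0.150), below every array without reflux.

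No stress keratin besides Krt16 was called. Krt6b, a partner of Krt16, was at 2.64, 4.90 and 3.50 in mixed reflux, against 2.15, 2.96 and 2.74 without reflux (adjusted p 0.424). Krt6a was at 3.33, 3.75 and 3.55, against 2.68, 3.04 and 3.21, above every array without reflux (adjusted p 0.402). Krt17 was at 2.93, 3.58 and 2.86, against 2.46, 2.99 and 3.56, so that its groups overlapped. Krt75 went the other way, at 3.35, 3.68 and 2.56 in mixed reflux, against 3.92 and 4.26 on the 2 arrays without reflux that had a value (difference -0.89 ± 0.65, adjusted p 0.657). Of the 5 stress keratins tested 1 was called, and 2 of the 4 with values on all 6 arrays were higher without overlap, against 15.8% of all genes.

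Among the regulatory lists no gene was called. Over all genes with values on all 6 arrays, 15.8% were higher and 6.53% were lower without overlap. The early response genes, 24 tested, had a median of 0.41, and 5 of the 13 with values on all 6 arrays were higher without overlap. Fos, a subunit of AP-1, was at -2.87, -1.44 and -3.12 in mixed reflux, against -3.57, -4.12 and -4.48 without reflux (adjusted p 0.317). Of the genes of the unfolded protein response, which handles misfolded proteins in the endoplasmic reticulum, 5 of the 7 with values on all 6 arrays were higher without overlap. Their list median over 22 genes was 0.30, with 0.17 without mixed reflux replicate 2 and 0.03 with scan day as a block. Sdf2l1, a chaperone partner there, was at -1.17, -0.72 and -1.15, against -1.75, -1.5 and -1.80 (adjusted p 0.270). The 15 heat shock genes had a median of -0.02. The 27 interferon-stimulated genes had a median of 0.04, with 5 higher and 5 lower without overlap among 24, and a median of -1.20 with scan day as a block.

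By list, the median difference between mixed reflux and no reflux was 0.76 for 29 tested macrophage genes, 0.86 for 14 antigen presentation genes, 0.59 for 18 neutrophil genes and 0.56 for 18 T and NK cell genes, against a median of 0.08 over all genes. Of the genes with a value on all 6 arrays, 10 of 24 macrophage genes, 4 of 11 antigen presentation genes, 7 of 16 neutrophil genes and 10 of 18 T and NK cell genes were higher without overlap. The share over all genes was 15.8%. Only S100a8 among the neutrophil genes was called, and no gene of the other 3 lists was. Without mixed reflux replicate 2 the medians were 0.44, 0.65, 0.23 and 0.49 in the same order of lists, over an all-gene median of 0.07. With scan day as a block they were 0.57, 0.02, 0.56 and 0.11, over an all-gene median of 0.01. Ccr2, a chemokine receptor of monocytes, was at 2.57, 4.71 and 3.39 in mixed reflux, against 1.46, 1.67 and 1.33. Cd3d, a subunit of the T cell receptor complex, was at 0.97, 1.81 and 0.76, against -0.72, 0.37 and -0.99. Nkg7, a granule protein of cytotoxic cells, was at 1.98, 1.71 and 1.57, against 0.09, 1.16 and 0.19. Each of the 3 was above all arrays without reflux and none passed the test.

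The lists of skeletal muscle, fat, blood and liver were higher in median in mixed reflux, and their means were highest in replicate 2. The smooth muscle list was lower in median, though its mean was also highest in replicate 2. The 34 skeletal muscle genes had a median difference of 1.5, and 0.57 without replicate 2. Of the 28 with values on all 6 arrays, 11 were higher without overlap, against 15.8% of all genes. Myot, a sarcomere protein, was at 2.43, 6.61 and 2.02 in mixed reflux, against 0.77, 1.87 and 1.09 without reflux. The adipocyte genes had a median of 0.85, and 0.25 without replicate 2, and Cfd, the fat-secreted complement factor, well above background on mixed reflux replicate 2 alone of these arrays, was at -0.15, 7.04 and -0.02, against -0.04, 0.05 and 0.44. Hba-a1, an alpha globin, was at 3.37, 3.77 and 3.1, against 1.85, 2.06 and 1.61 (difference 1.57 ± 0.29, adjusted p 0.0565), and all 3 blood genes tested were higher without overlap. The 13 smooth muscle genes had a median of -0.46, and -0.64 without replicate 2, with means of 1.86, 2.92 and 1.97 in mixed reflux, against 2.50, 2.68 and 2.74 without reflux. The fibroblast and matrix genes had a median of 0.17, and -0.28 without replicate 2. Of 15 liver genes, 7 were higher without overlap. Alb, the serum albumin, was at 1.30, 3.60 and 1.22, against 0.10, -0.06 and 0.26. With the means of the muscle and adipocyte lists as covariates, 1 gene was called higher and 1 lower against no reflux, 1 of them among the 11, and all 11 kept their sign.

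**Figure D3:**
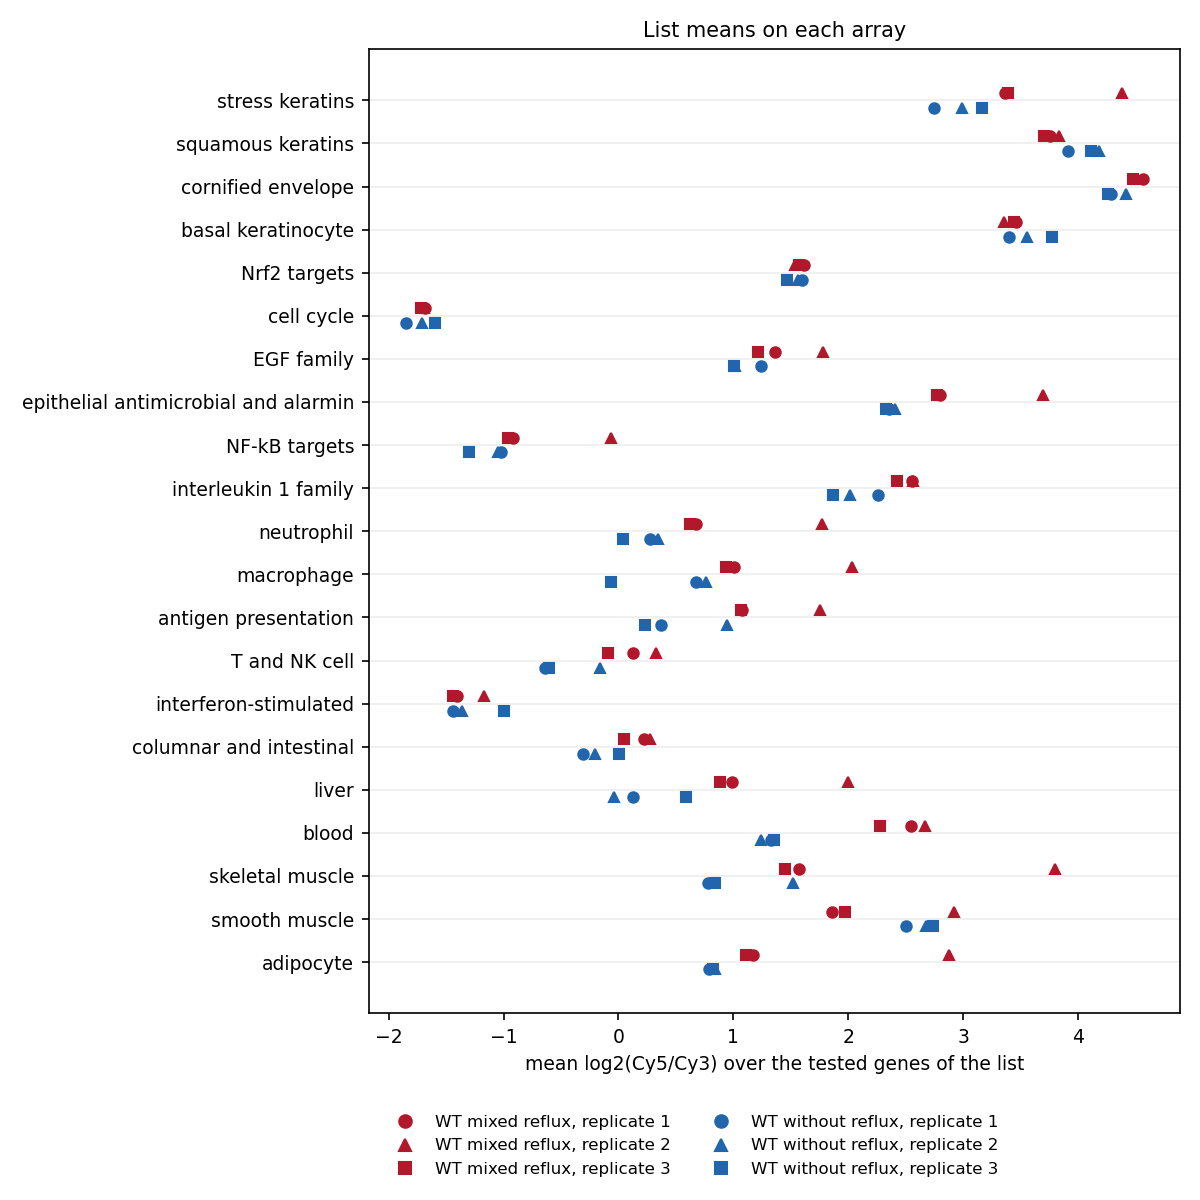
Mean log2(Cy5/Cy3) over the tested genes of 21 lists on each wild-type mixed reflux array (red, upper points of each line) and each array without reflux (blue, lower points); symbols give the replicate. Replicate 2 of mixed reflux (red triangle) stands to the right of the other mixed reflux arrays for the muscle, adipocyte, neutrophil, macrophage, NF-kB and alarmin lists, and with the others for Nrf2 targets and cell cycle.

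Genes of columnar and intestinal epithelium, the cell type of Barrett's metaplasia, were higher in some cases at low levels. Of 30 tested, 9 of the 25 with values on all 6 arrays were higher without overlap, none was called, and the list median was 0.22. Over all genes, 15.8% were higher and 6.53% were lower without overlap. Reg3b, an antibacterial lectin of gut epithelium, was at 1.40, 3.00 and 0.99, against 0.26, 0.03 and 0.23 (at least 2.40-fold, adjusted p 0.0917). It was well above background on 3 of 3 mixed reflux arrays, 0 of 3 without reflux and 0 of 3 with duodenal reflux. The counts of higher genes can include members that entered the test through mixed reflux alone. Tff3, a mucosal repair peptide of goblet cells, was at 0.85, 0.80 and 0.74, against -0.12, 0.14 and 0.18. Muc2 and Cdx2 were not tested, since no group had them well above background on all its arrays. The Nrf2 target list showed no net shift, with a median of 0.10 over 40 genes. Of the 8 with values on all 6 arrays, 1 was higher and 2 were lower without overlap. Gclc and Gclm, the subunits of the rate-limiting enzyme of glutathione synthesis, were lower in mixed reflux on every array measured: Gclm was at 0.38, 0.83 and 0.64, against 1.28, 1.09 and 1.59 (adjusted p 0.551). Gclc had a value on 2 arrays without reflux, and its difference of -0.99 (adjusted p 0.383) became 0.005 with scan day as a block. The Gclm difference was -0.71, and -0.51 with scan day as a block. The cell cycle list, 48 genes, had a median of -0.02.

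Duodenal reflux was scanned on day 3 with mixed reflux, and mixed reflux replicate 1 shared slide 3 with it. Against duodenal reflux, 188 of 20541 genes were higher in mixed reflux and 362 were lower, 0.915% and 1.76% of the genes tested. Of the genes called against no reflux, S100a8, Cd163l1 and Fmo9 were called lower in mixed than in duodenal reflux. Cd163l1 averaged 3.76 in mixed and 5.91 in duodenal reflux, and Fmo9 averaged 2.24 and 4.905. The rest were not called between mixed and duodenal reflux. Cd163, a haemoglobin scavenger receptor of resident macrophages, was at 4.78, 4.75 and 4.44 in mixed reflux, 1.44, 1.48 and 1.27 in duodenal reflux, and 4.28, 4.46 and 4.36 without reflux. The mixed reflux arrays were 3.27 ± 0.31 above duodenal reflux (adjusted p 5.56e-05) and 0.29 ± 0.31 above no reflux (adjusted p 0.796). Retnla, a marker of alternatively activated macrophages, was at 5.63, 5.22 and 5.45 in mixed reflux, against 1.68, 2.02 and 1.90 in duodenal reflux. F13a1, a transglutaminase of resident macrophages, was at 2.35, 3.31 and 2.03, against -0.38, 0.01 and -0.20. These 3 genes were called against duodenal reflux, with differences of 3.27, 3.56 and 2.76, and they stayed called without any 1 mixed or duodenal reflux array. Over the 29 macrophage genes, 3 were called higher against duodenal reflux, none lower, and the list median was -0.09. Chil3, a chitinase-like protein of activated macrophages, was at 0.83, 3.33 and 1.41 in mixed reflux, against 4.85, 4.66 and 4.55 in duodenal reflux (difference -2.83 ± 1.07, adjusted p 0.205). Ms4a4c, a monocyte membrane protein, was called lower, at 0.32, 1.92 and 0.00 in mixed reflux, against 3.94, 4.38 and 3.83 in duodenal reflux (difference -3.30 ± 0.33, adjusted p 7.59e-05). The other genes with the largest called differences were Fam184b, Pnpla3, Mboat2, Sult1d1 and Pcolce2, higher in mixed reflux by 1.96 to 2.54, and Spink12, Akr1c18, Ltf, S100a8, Bhlhe22, Plch1 and Lgi2, lower by differences of -3.74 to -3.05. Fam184b, Pnpla3, Spink12, Ltf and S100a8 lost their call without mixed reflux replicate 1 or 3 or any 1 duodenal array (adjusted p up to 0.223), and Pcolce2 without any 1 array of either group. Akr1c18, Bhlhe22, Plch1 and Ms4a4c were well above background on 1 of 3 mixed reflux arrays, so the size of their differences is uncertain. Akr1c18, an aldo-keto reductase of progesterone metabolism, was at -0.16, 2.47 and -0.15 in mixed reflux, against 4.06, 4.26 and 4.30 in duodenal reflux (difference -3.48 ± 0.46, adjusted p 0.00081). Sult1d1, a sulfotransferase, was at 2.65, 3.20 and 2.69 in mixed reflux, against 0.84, 0.79 and 0.82 in duodenal reflux (difference 2.03 ± 0.32, adjusted p 0.0023). Ltf and Il19, high in mixed reflux replicate 2 alone, averaged 5.09 and 4.29 in duodenal reflux.

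The DNA replication licensing genes separated the groups. Of Mcm2 to Mcm7, the helicase of S phase, 5 of 6 were called lower in mixed reflux than in duodenal reflux, and the differences of all 6 ran from -1.44 to -0.67, while their differences against no reflux ran from -0.06 to 0.34. Mcm3 was at -2.85, -2.31 and -2.71 in mixed reflux, against -1.18, -1.20 and -1.17 in duodenal reflux (difference -1.44 ± 0.20, adjusted p 0.00112). It was at -2.68, -2.36 and -2.67 without reflux. Over all genes tested, 1.76% were called lower and 0.915% higher in mixed than in duodenal reflux. Of the 48 cell cycle genes 13 were called lower. Of 28 NF-kB targets 7 were lower, and of 13 genes of the IL-20 and IL-17 family 4 were lower, with Il20ra, a receptor subunit for IL-20 cytokines, at -2.09 ± 0.34. The detoxification genes Aldh1a1, Gstm1, Gstm2 and Gstm3, members of the Nrf2 target list, were called higher, 4 of 40, with differences of 1.45, 0.80, 1.31 and 0.89. The comparisons with duodenal reflux and with no reflux share the mixed reflux arrays. Centring each array on its median, with no loess, left 79 higher and 73 lower calls, and F13a1 (adjusted p 0.0502), Ltf (0.0526), Spink12 (0.0593), S100a8 (0.0639) and Pcolce2 (0.105) were not called.

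**Figure D4:**
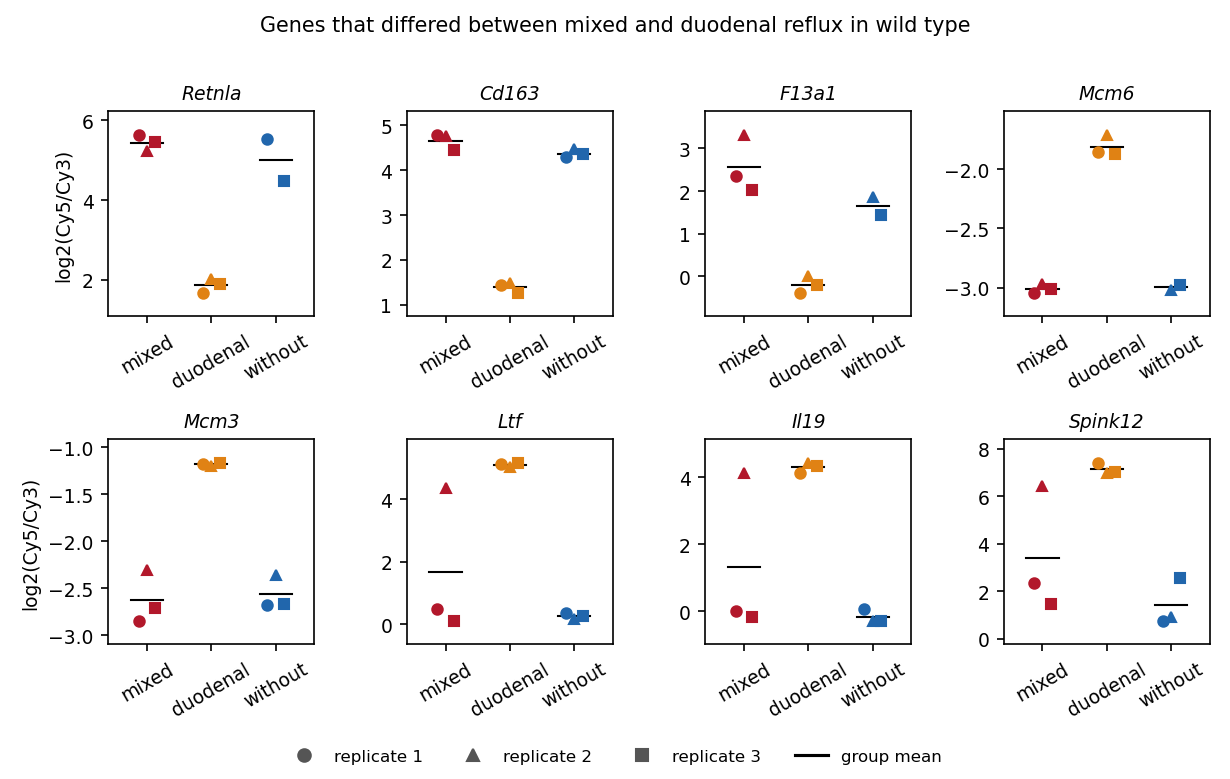
log2(Cy5/Cy3) on each array of wild-type mixed reflux (red), duodenal reflux (orange) and without reflux (blue) for 8 genes; lines are group means, and arrays without a value are left out. Retnla, Cd163 and F13a1 are high in mixed reflux and low in duodenal reflux, Mcm6 and Mcm3 are lower in mixed reflux, and for Ltf, Il19 and Spink12 mixed reflux replicate 2 is near the duodenal level and replicates 1 and 3 are not.

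Against gastric reflux, 1309 of 20542 genes were higher in mixed reflux and 1013 were lower, 6.37% and 4.93%. Gastric reflux was scanned on day 2, and with scan day as a block 1 gene was called. Of the lists, 11 of 48 cell cycle genes were higher in mixed reflux and 6 of 15 liver genes were lower. Muscle transcripts varied within the gastric group. The skeletal muscle list averaged 0.46, 4.72 and 4.67 on gastric replicates 1 to 3, against 1.57, 3.80 and 1.45 in mixed reflux.

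The same contrast in Nrf2-null mice compared arrays that belong to neither wild-type group. Both contrasts came from the same fit and share its estimate of the spread, so their calls are not fully separate. There 700 of 20542 genes rose and 267 fell, 3.41% and 1.3%, with the 3 Nrf2-null mixed reflux arrays averaged to 1 sample. Pairs of these arrays differed with a variance 1.44 to 1.58 times that of repeat spots, against 2.07 to 80.5 in the other groups. The rule for averaging asked for no more than the repeat spots, so it was not strictly met. Counted as 3 samples, they gave 5046 called genes, and 1458 genes differed between the genotypes. Of the 11 genes called in wild type, 9 had the same sign in Nrf2-null mice and 5 were called there, S100a8, Cd163l1, Krt16, Fmo9 and Hoxa9. S100g was at 2.01 in the wild-type contrast and 0.06 in the Nrf2-null contrast, Prap1 at 1.93 and 0.10, and Clec2d at 1.5 and -0.39. Of the 967 genes called in Nrf2-null mice, 703 had the same sign in wild type. The share of all genes with the same sign in both genotypes was not computed, so 703 has no background to be set against. The wild-type contrast and the Nrf2-null contrast differed at an adjusted p under 0.05 for 268 genes, 78 higher in the wild-type response (0.38%) and 190 lower (0.925%). Scan days differed between the genotypes as well, and with scan day as a block 45 genes differed.

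**Figure D5:**
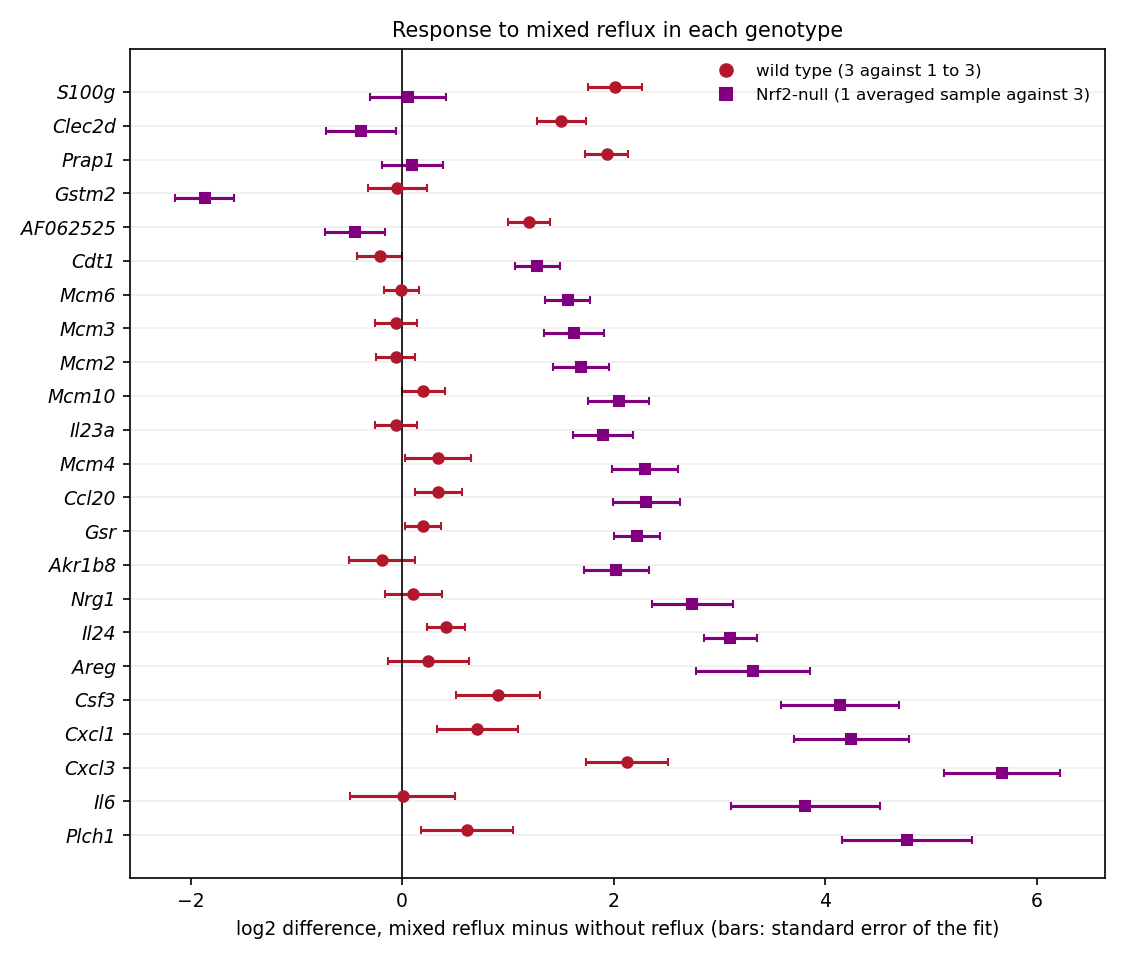
log2 difference between mixed reflux and no reflux, with its standard error, in wild type (red circles, 3 arrays against 3, but against 1 array without reflux for Gstm2, Cdt1, Mcm4 and Akr1b8 and against 2 for Mcm6 and Gsr) and in Nrf2-null mice (purple squares, 1 averaged sample against 3). The 23 genes shown were chosen with their values known from the 268 whose response differed between genotypes. S100g, Clec2d, Prap1 and AF062525 moved in wild type and lay near or below 0 in Nrf2-null mice, and Cxcl1, Cxcl3, Il6, Csf3 and the Mcm genes had larger differences in Nrf2-null mice than in wild type.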

How the data were processed

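RNA from mouse oesophagus was measured on Agilent 2-colour arrays, 24 in all. The deposited scanner files give, per the file headers, a linear mean intensity and local background intensity in each dye for 45018 spots, 43379 of them gene spots, with a log10 ratio (Cy5 over Cy3) from the authors' Feature Extraction software (9.1 in the submitters' processing notes, 10.5.1.1 and 10.7.3.1 in the file headers). The authors' deposited value table holds log2 ratios, used as an alternative; its normalization is not stated. Its direction matched that of the scanner ratios. Where the software marked a local background as an outlier, the median of that array took its place; the text gives how the background model behaved otherwise. Intensities were then corrected by normexp (offset 50) and loess with the 1639 control spots at weight 0, in limma 3.58.1 (R 4.3.3). The 41174 probes were averaged over spots, and a gene was its brightest probe, which entered the test if the Cy5 signal of some probe was well above background throughout 1 or more groups. Differences came from limma's lmFit and eBayes over 22 samples, with Benjamini-Hochberg adjustment and a threshold of 0.05; prior degrees of freedom were 2.92 and residual 14. Genes named by rule are the largest changes with groups that do not overlap and a symbol, the members of the lists, and the 8 largest in each direction against duodenal reflux. The 49 lists (1056 genes, 973 tested), the members and the tests were chosen with earlier results of these data known. The statistic was tested on simulated data. The number of arrays limits the precision. Each SE and p-value uses a spread for each gene that is pooled over all groups of the fit, not the spread of the compared groups alone.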

Additional observations from a re-analysis of the deposited data

Results flagged for a closer look

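The response to mixed reflux differed between the genotypes for 268 genes by the test of the difference itself; the 23 below are a part of these, chosen with their values known. Values are the wild-type response minus the Nrf2-null response on the log2 scale, and the Nrf2-null mixed reflux arrays count as 1 sample. The wild type without reflux had a value on only 1 array for Gstm2, Cdt1, Mcm4 and Akr1b8 and on 2 arrays for Mcm6 and Gsr, so the differences of the first 4 rest on an arm of 1 sample in each genotype. A lone sample is assumed to vary like the other groups.

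The difference was positive for S100g (1.953), Clec2d (1.89), Prap1 (1.838), Gstm2 (1.822), a glutathione transferase, and AF062525 (1.645), with adjusted p-values from 0.02008 to 0.03751. The wild-type response was 2.01 for S100g and 1.93 for Prap1, against 0.06 and 0.10 in Nrf2-null mice.

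It was negative for the replication genes Cdt1 (-1.487), Mcm6 (-1.573), Mcm3 (-1.681), Mcm2 (-1.748), Mcm10 (-1.846) and Mcm4 (-1.957), none of which was called in wild type. It was also negative for the cytokine and chemokine genes Il23a (-1.955), Ccl20 (-1.966), Il24 (-2.687), Csf3 (-3.232), Cxcl1 (-3.533), Cxcl3 (-3.548) and Il6 (-3.808). In wild type, Il23a was well above background on 0 of 3 arrays in both groups, and Csf3, Il6 and Plch1 were well above background on 1 of 3 mixed reflux arrays and 0 of 3 without reflux, so their wild-type response was read at background. Cxcl3 and S100g were not well above background without reflux. The EGF family genes Nrg1 (-2.637) and Areg (-3.069) and the phospholipase gene Plch1 (-4.157) went the same way. So did Gsr, glutathione reductase (-2.023), and Akr1b8, an aldo-keto reductase (-2.214).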

How the results depend on the processing

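Against no reflux the count of called genes was 11 in all. It was 31 with the scanner software's processed signals, 5 with median centring, 3126 with local backgrounds as read, 7 with probes well above background in both groups, 18 with probes averaged, 2 with only the 6 arrays, 279 with only the 12 wild-type arrays, 28 with Nrf2-null mixed reflux as 3 samples, 7 with scan day as a block, 7 with slide as a random block, 2 with muscle and fat list means as covariates, and 62 without both gastric reflux groups, an alternative chosen after seeing the data. Leaving out 1 array of the 2 groups gave 5 to 10, with 5 without no-reflux replicate 2 and 7 without no-reflux replicate 1 or 3; without Nrf2-null no-reflux replicate 3, which is in neither group, 22 genes were higher and 19 lower. The replicate numbers did not pair the samples (correlations of 0.03, 0.23 and 0.05); with the replicate block, 7 genes were higher and 1 lower.

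Against duodenal reflux the count was 550, 152 with median centring, 1848 with scan day as a block, and 161 to 762 leaving out 1 array (197 and 161 without mixed reflux replicates 1 and 3, and 247, 191 and 183 without duodenal replicates 1, 2 and 3). Against gastric reflux it was 2322, 819 with median centring, 1 with scan day, 901 with slide, and 98 to 4054 leaving out 1 array (117 and 534 without mixed reflux replicates 1 and 3, and 4054, 98 and 265 without gastric replicates 1, 2 and 3). In Nrf2-null mice it was 967, 476 with median centring, 5046 with mixed reflux as 3 samples, 565 with scan day, and 582 to 1132 leaving out 1 array (590 and 582 without no-reflux replicates 1 and 2). For the genotype difference it was 268, 68 with median centring, 1458 with mixed reflux as 3 samples, 45 with scan day, 148 with slide, 166 with the replicate block, and 85 to 426 leaving out 1 array (85, 426 and 89 without wild-type mixed reflux replicates 1, 2 and 3, 113 without wild-type no-reflux replicate 2, and 86, 102 and 158 without Nrf2-null no-reflux replicates 1, 2 and 3). The sign was followed for the 11 genes called against no reflux and the 16 genes named by rule against duodenal reflux. None of these differences changed its sign under the alternatives run for it. With median centring the median of all genes was 0.22 in place of 0.08. The cause of these changes was not tested. With local backgrounds as read, the Cy5 background model had fitted means of -813.1 and -1075 on wild-type replicates 1 and 3 without reflux. Whether these arrays gave the added calls was not tested.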
